A study of Gallus gallus with 8 samples.

Results

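Triglyceride and cholesterol leave the liver in particles wrapped in apolipoproteins, and lipases on vessel walls take the fat out of them again. Genes of this system were followed in broiler liver, 8 in number: the apolipoproteins APOA1, apoAIV, APOB and APOH, the assembly factor MTTP, the lipases LPL and LIPC, and ANGPTL4, which inhibits LPL. They were the genes whose name in the expression table equalled one of these 8, in any letter case, out of 13427 genes, and each name had 1 entry. Their m6A peaks were taken from the peak lists.

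APOB is the structural protein of very low density lipoprotein, and MTTP loads it with triglyceride in the endoplasmic reticulum. APOA1 is the main protein of high density lipoprotein (HDL). ANGPTL4 restrains LPL, which releases fatty acids from circulating particles, while APOA5 favours its activity in mammals. In birds the liver is the main site of fat synthesis, so lipoprotein export supplies the other tissues.

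The study compared livers taken at 2 h from broilers aged 21 days that had received LPS of Escherichia coli 055:B5, an endotoxin, into the peritoneum at 1 mg/kg, with livers of broilers given an equal volume of phosphate-buffered saline (control). Polyadenylated RNA was cut into fragments and sequenced before (input) and after immunoprecipitation (IP) with an antibody against N6-methyladenosine (m6A), a methyl mark inside messenger RNA. There were 8 libraries in 4 groups of 2: LPS input, LPS IP, control input and control IP. No strain, sex or genotype is labelled, and no label ties each library to its own bird, so p-values measure the spread between these libraries, which may be technical.

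Levels are FPKM of the input libraries, a unit scaled by transcript length and library size, and absolute depth is unknown. Of 10 hepatocyte markers, 9 were tested, 4 rose and 2 fell, and their summed FPKM was 54736 to 55804 in LPS and 38624 to 40917 in control libraries, with CPS1 under 0.5 FPKM in all of them. With libraries scaled to equal medians, 6 of the tested hepatocyte markers rose and 1 fell. Of all tested genes, 10.7% rose and 31.4% fell as deposited, and 14.1% rose and 16.8% fell at equal medians. Because the called markers went both ways, the higher sum does not measure the share of hepatocytes. The summed FPKM of 5 matched gut markers was 1.27 to 2.70 in LPS and 2.69 to 3.29 in control libraries, with SI, MEP1A and LCT under 0.5 FPKM throughout. That sum for 5 matched muscle markers was 2.39 to 4.12 in LPS and 6.07 to 6.97 in control libraries, and ACTA1, the 1 tested, was lower (adjusted p = 0.0459, but 0.0506 to 0.357 in 7 alternatives, among them those lacking control library 1, control library 2 or LPS library 1). The median log2 fold change over all 9484 tested genes was −0.34, and −0.07 after the libraries were scaled to equal medians, so each change below is to be read against that shift. In whole-liver RNA, fewer cells of a type and less RNA per cell cannot be told apart.

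Of the 8 genes, ANGPTL4 differed most after LPS, followed by LPL. ANGPTL4 and LPL fell, apoAIV and MTTP fell by less, and APOA1, APOB, APOH and LIPC did not pass the test. In all, 4 of the 8 genes were lower and 0 higher (limma, Benjamini-Hochberg adjusted p under 0.05 over all tested genes). Of all tested genes, 31.4% were lower and 10.7% higher, 42.1% in either direction. With libraries scaled to equal medians, ANGPTL4 and LPL were the 2 genes still lower, against 16.8% lower and 14.1% higher among all tested genes. The median log2 fold change of the 8 genes was −0.44 as deposited and −0.13 at equal medians.

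**Figure D1:**
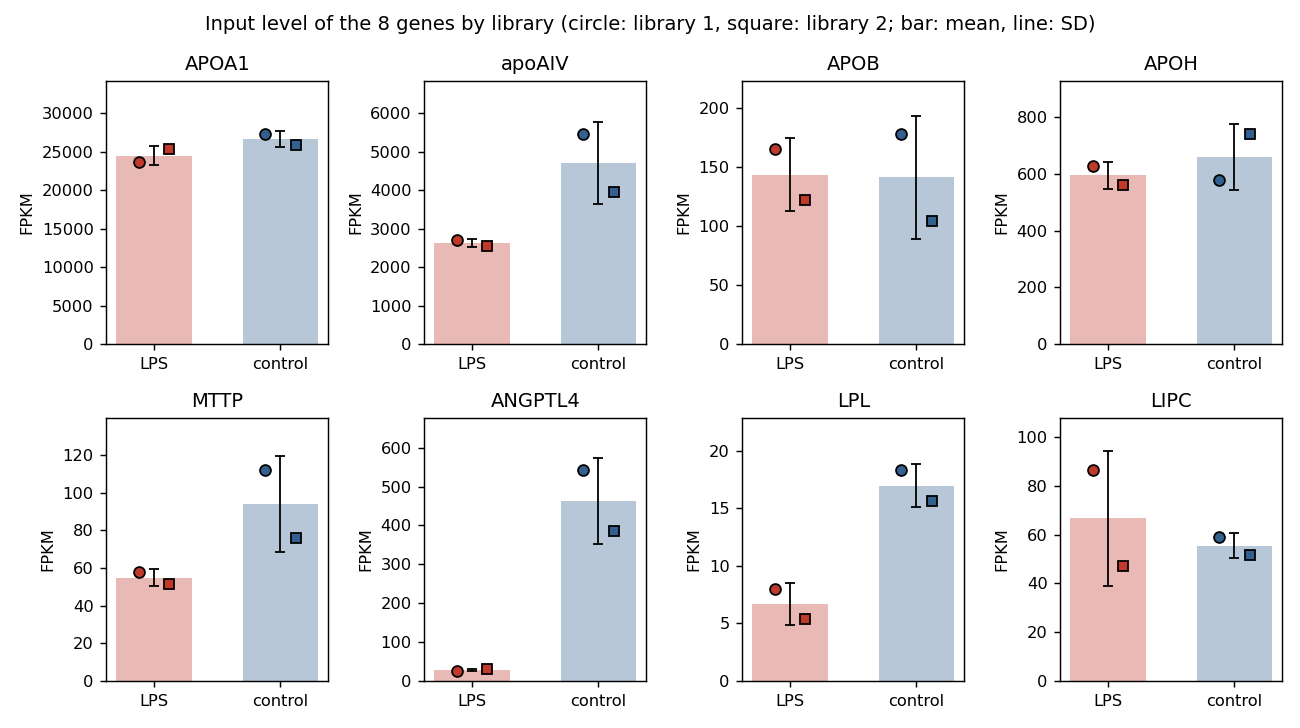
FPKM of each of the 8 genes in the 2 LPS and the 2 control input libraries (points), with the group mean (bar) and SD (line), on a separate axis from 0 for each gene. ANGPTL4 sits at 26.2 and 30.9 FPKM in LPS libraries, far under both control libraries, while the groups of APOB, APOH and LIPC overlap.

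ANGPTL4 had 26.2 and 30.9 FPKM in LPS livers, against 542 and 385 FPKM in control livers. Both LPS libraries lay far below both control libraries. The mean was 28.5 ± 3.30 FPKM in LPS and 463 ± 111 FPKM in control livers (SD, n = 2 each), a log2 fold change of −3.96 (SE 0.21, 95% interval −4.45 to −3.47, limma adjusted p = 2.22e-05). It ranked 16 of 9484 tested genes, counted from the largest fall. In order of level among all genes of a library, ANGPTL4 stood at positions 1981 and 1733 in LPS livers and at 143 and 223 in control livers.

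LPL is made mainly outside hepatocytes in adult mammals, and its RNA was low in these livers. It had 7.96 and 5.42 FPKM in LPS livers, against 18.3 and 15.6 FPKM in control livers. The groups did not overlap, and the log2 fold change was −1.24 (SE 0.22, 95% interval −1.76 to −0.72, limma adjusted p = 0.00402). Counted from the largest fall, LPL ranked 849 of 9484. The fall remained at equal medians (−0.96, adjusted p = 0.0115).

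Summed macrophage, endothelial, adipocyte and muscle markers were lower in both LPS libraries than in both control libraries, as was LPL. Those of hepatocytes and erythrocytes were higher, and the sums of the remaining types overlapped. Such a gap was common: 55.8% of all tested genes had both LPS libraries below both control libraries, and 18.4% had both above. Of 7 matched macrophage markers, all tested, 6 fell (CSF1R, MARCO, C1QA, C1QB, CTSS and TIMD4) and 0 rose, with 5 lower at equal medians. Among all tested genes, 31.4% were lower as deposited and 16.8% at equal medians. CTSS was the marker not lower at equal medians (limma adjusted p = 0.151). The macrophage markers summed to 950 and 876 FPKM in LPS livers against 1254 and 1463 FPKM in control livers. The largest part came from Ii, with 556 and 504 FPKM in LPS and 520 and 655 FPKM in control livers. Its groups overlapped and it did not pass (−0.14, limma adjusted p = 0.566). The macrophage receptor CSF1R fell by 1.51 and the scavenger receptor MARCO fell by 0.91 on the log2 scale.

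Of 9 matched endothelial markers CDH5, KDR, TEK and EGFL7 fell, FLT1 rose, and PECAM1, STAB2, LYVE1 and VWF did not pass. The background share lower was 31.4% of all tested genes as deposited and 16.8% at equal medians. The sum of the 9 was 67.7 and 52.5 FPKM in LPS and 100.2 and 88.2 FPKM in control livers. Of the 4 that fell, KDR and EGFL7 were the 2 still lower at equal medians. The count lower was also 2 under quantile normalization, with control library 1 left out and with LPS library 2 left out. Of 4 matched adipocyte markers CIDEC, a lipid droplet protein, fell (adjusted p = 0.0121, but 0.0598 under quantile normalization), and ADIPOQ, the adipocyte hormone, had a log2 fold change of 0.07 (adjusted p = 0.860). The adipocyte sum was 46.4 and 44.0 FPKM in LPS and 125.6 and 104 FPKM in control livers. Most of it came from CIDEC, with 42.9 and 35.3 FPKM in LPS and 119 and 66.6 FPKM in control livers. The groups overlapped for ADIPOQ, PLIN1 and FABP4, none of them called as deposited, so the sum does not measure the share of adipocytes. With 1 library left out, 1 to 3 adipocyte markers were lower, and the fits lacking control library 1 or LPS library 2 gave 3 each.

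Of 7 matched markers of stellate cells and fibroblasts, LUM and LRAT fell and DES rose (1.42), and their sums overlapped, 202 and 179 FPKM in LPS and 145 and 179 FPKM in control livers. The 2 matched erythrocyte markers summed to 381 and 527 FPKM in LPS and 360.0 and 365 FPKM in control livers, nearly all of it from the globin HBG2 (log2 fold change 0.31, adjusted p = 0.249). The 2 matched heterophil markers summed to 11.2 and 7.52 FPKM in LPS and 4.54 and 8.35 FPKM in control livers, and neither passed the test as deposited, while CSF3R was higher at equal medians (0.80, adjusted p = 0.0468). The part of these cell types in the fall of LPL was not tested.

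ANGPTL4 and LPL did not fall in proportion. The ratio of ANGPTL4 to LPL within a library, which no scaling of libraries can change, was 3.29 and 5.70 in LPS livers against 29.6 and 24.6 in control livers. The ratio of LPL to LIPC was 0.0922 and 0.115 in LPS livers and 0.309 and 0.302 in control livers. With 2 libraries a group, an exact two-sided permutation test of such a ratio cannot give a p below 0.333, so these ratios are descriptions.

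LIPC, the hepatic lipase, which trims lipoprotein remnants and HDL in mammals, had 86.4 and 47.2 FPKM in LPS livers and 59.2 and 51.9 FPKM in control livers. The LPS libraries lay on both sides of the control libraries. The log2 fold change was 0.20 (SE 0.28, 95% interval −0.44 to 0.84, limma adjusted p = 0.579).

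**Figure D2:**
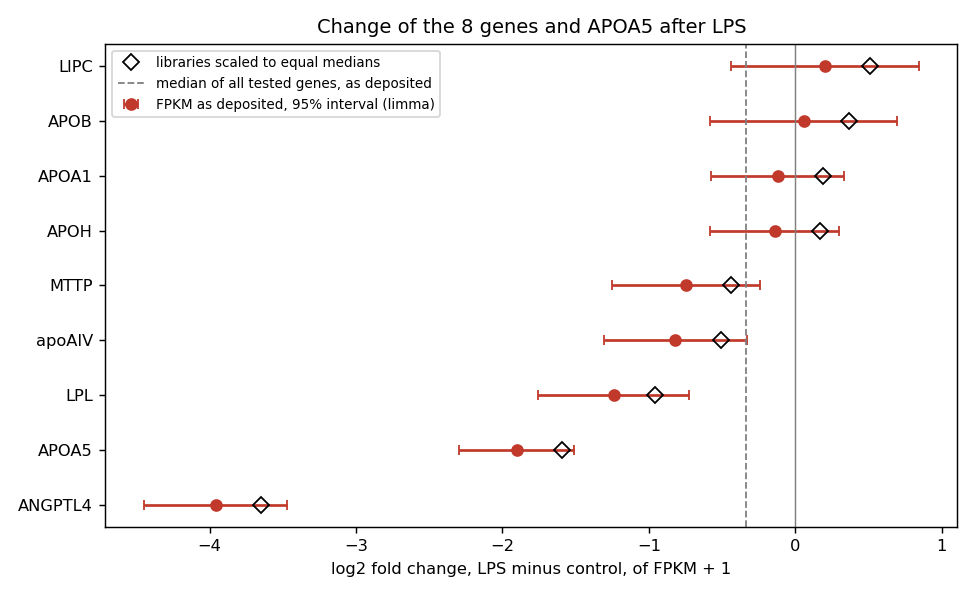
Log2 fold change, LPS minus control, on the log2(FPKM + 1) scale for the 8 genes and for APOA5 (points with limma 95% intervals), with the value at equal medians as open diamonds. ANGPTL4 and APOA5 lie furthest left, and the intervals of LIPC, APOB, APOA1 and APOH cross 0.

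Among the apolipoproteins, APOA1 ranked first or second of all genes in every input library. It had 23589 and 25373 FPKM in LPS livers and 27320 and 25881 FPKM in control livers, or 4.31% and 4.52% of summed FPKM in LPS against 5.06% and 4.55% in control. Both LPS libraries lay below both control libraries, but the gap was smaller than the spread within either group. The log2 fold change was −0.12 as deposited and 0.19 at equal medians (SE 0.20 and 95% interval −0.57 to 0.33 as deposited, limma adjusted p = 0.642 and 0.532).

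apoAIV, the apolipoprotein A-IV of HDL and triglyceride-rich particles, had 2710 and 2562 FPKM in LPS livers, against 5475 and 3953 FPKM in control livers. Both LPS libraries were below both control libraries, as were those of APOA1, MTTP, ANGPTL4 and LPL. These were 5 of the 8 genes, and the groups of the other 3 overlapped. Among all tested genes the groups did not overlap in 74.2%, and 55.8% had both LPS libraries below both control libraries. The log2 fold change of apoAIV was −0.82 (SE 0.21, 95% interval −1.31 to −0.33, limma adjusted p = 0.0171). At equal medians it was −0.51 and did not pass (adjusted p = 0.110), nor did it pass when no low values were filtered out (0.0775). Of the 4 leave-one-out fits, those lacking control library 1 (0.0536), LPS library 1 (0.0615) or LPS library 2 (0.117) lost the call.

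APOB had 166 and 122 FPKM in LPS livers and 179 and 104 FPKM in control livers. Library 1 was above library 2 in both groups, and the groups overlapped. The log2 fold change was 0.06 (SE 0.28, 95% interval −0.58 to 0.70, limma adjusted p = 0.880).

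APOH, a phospholipid-binding plasma protein also called beta-2-glycoprotein 1, had 627 and 560 FPKM in LPS livers and 576 and 741 FPKM in control livers. Its groups overlapped, with a log2 fold change of −0.14 as deposited and 0.17 at equal medians (SE 0.19 and 95% interval −0.58 to 0.30 as deposited, limma adjusted p = 0.578 and 0.552).

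MTTP had 58.1 and 51.5 FPKM in LPS livers, against 112 and 76.1 FPKM in control livers. The groups did not overlap, but the control libraries stood further apart from each other than the LPS libraries did. The log2 fold change was −0.74 (SE 0.22, 95% interval −1.25 to −0.24, limma adjusted p = 0.0278). At equal medians it was −0.44 (adjusted p = 0.161), and the call also ended with no filter (0.0591), under quantile normalization (0.139) and without control library 1 (−0.47, adjusted p = 0.104). The ratio of MTTP to APOB within a library was 0.351 and 0.422 in LPS livers and 0.626 and 0.729 in control livers.

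Other genes of the pathway came from 5 lists of lipoprotein genes with 147 names, of which 105 genes were in the table. Leaving out the 8 genes above, 83 were tested: 39 fell, 11 rose and 33 did not pass. Among these, 47.0% were lower, against 31.4% of all tested genes. At equal medians 28 were lower and 12 higher, 33.7% lower against 16.8% of all tested genes. The median log2 fold change of the 83 was −0.52, and −0.23 at equal medians. These lists were chosen with earlier results of these data known, so the shares are descriptions and no independent support.

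Of the 4 other tested genes with apolipoprotein names, APOA5 fell and APOO, APOOL and APOV1 did not pass, with a median of −0.56. Of the 18 other genes tested for lipases and their control, 4 fell, 4 rose and 10 did not pass. That was 22.2% lower and 22.2% higher, against 31.4% lower and 10.7% higher among all tested genes. At equal medians 22.2% were lower, against 16.8% of all tested genes. Among those that fell were the lipase gene LIPH (−1.13, adjusted p = 0.00866) and the proprotein convertase PC7 (−1.08, adjusted p = 0.00226), both named after their values were seen. LIPH was low, with 0.811 and 1.35 FPKM in LPS livers against 4.07 and 3.04 FPKM in control livers. CREB3L3, a liver transcription factor that raises lipase cofactors in mice, had 43.8 and 18.1 FPKM in LPS livers and 79.0 and 85.4 FPKM in control livers (log2 fold change −1.51, limma adjusted p = 0.0122, but 0.0541 without control library 1 and 0.0660 without control library 2). SDC4, a heparan sulphate proteoglycan, had 897 and 791 FPKM in LPS livers against 27.9 and 33.8 FPKM in control livers (log2 fold change 4.73, SE 0.18, limma adjusted p = 6.46e-06). SDC1, the syndecan that binds remnant particles on mouse hepatocytes, rose by 1.32. ABHD5, the coactivator of adipose triglyceride lipase, rose by 3.39, and the lipase itself, PNPLA2, by 1.27 (adjusted p = 0.0251, but 0.0779 with no filter and 0.103 without control library 1). The list median was −0.02, against −0.34 for all tested genes.

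Of 21 other genes of lipoprotein assembly and secretion, 12 fell, 2 rose and 7 did not pass, with a median of −0.62. At equal medians 7 were lower and 2 higher. The share lower was 57.1% as deposited and 33.3% at equal medians, against 31.4% and 16.8% of all tested genes. The sterol sensor SCAP (−2.43), the coat protein SEC24D (−1.93) and LPCAT3, which remodels phospholipids (−1.83), had the largest falls. TMEM41B (2.23) and VMP1 (0.83), membrane proteins of lipid scrambling, rose. Chosen after their values were seen, SAR1B, the small GTPase that lets large particles leave the endoplasmic reticulum, fell by 1.38, and TM6SF2 and PLA2G12B, which act in lipidation of APOB particles in mammals, fell by 1.43 and 1.69. P4HB, the protein disulfide isomerase that is the other subunit of the MTTP complex, was also looked at after its values were seen. It had 432 and 414 FPKM in LPS livers against 572 and 643 FPKM in control livers (−0.52, adjusted p = 0.0390). P4HB did not pass at equal medians (−0.21, adjusted p = 0.414) nor under 7 other alternatives (0.0535 to 0.202), among them those lacking control library 2, LPS library 1 or LPS library 2.

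**Figure D3:**
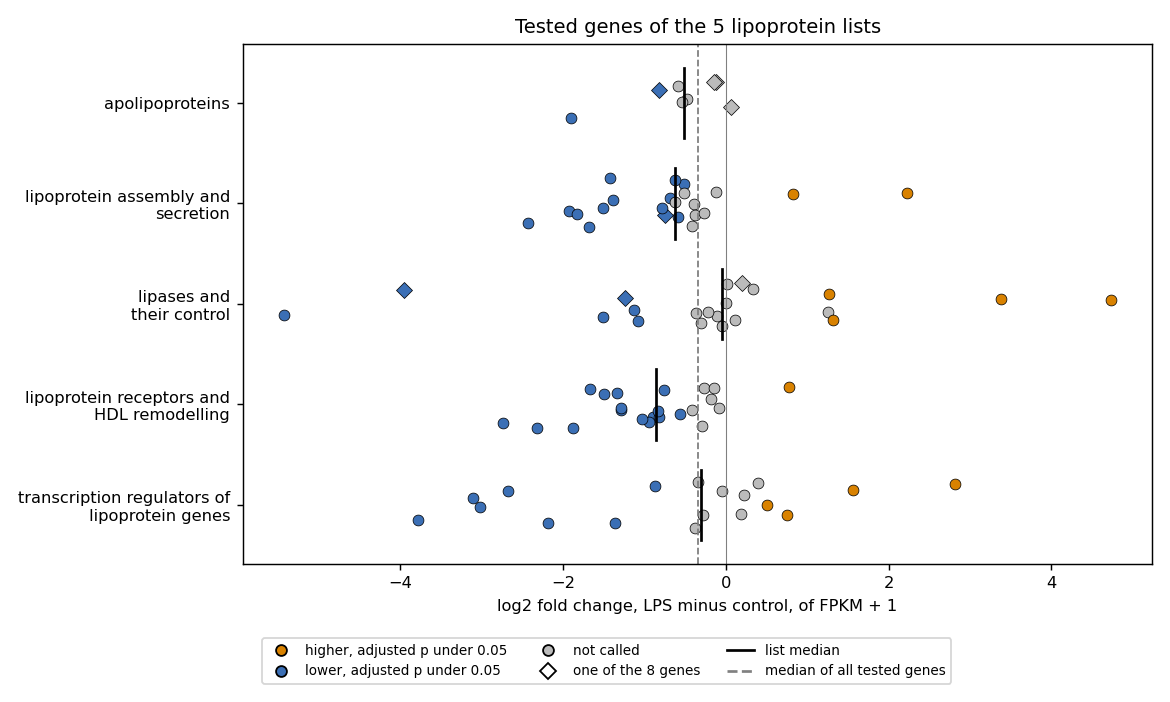
Log2 fold change, LPS minus control, of every tested gene in the 5 lipoprotein lists (points; diamonds are the 8 genes), with the list median (black line) and the median of all tested genes (dashed line, −0.34). The receptor and HDL list has the lowest median, −0.86, and ANGPTL4 is the leftmost diamond.

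Of 22 genes of lipoprotein receptors and HDL remodelling, 15 fell, 1 rose and 6 did not pass, with a median of −0.86. At equal medians 10 were lower and 1 higher, and the median was −0.59. The share lower was 68.2% as deposited and 45.5% at equal medians, against 31.4% and 16.8% of all tested genes. PDZK1, an adaptor of the HDL receptor SCARB1, fell by 2.32. Its level was low, 0.131 and 0.490 FPKM in LPS livers against 6.10 and 4.94 FPKM in control livers. NPC1, a cholesterol exporter of lysosomes, fell by 1.87. LRP5 rose by 0.77 (adjusted p = 0.0150, but 0.0529 with control library 1 left out and 0.0715 with LPS library 1 left out).

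Of 18 transcription regulators of lipoprotein genes, 7 fell, 4 rose and 7 did not pass, with 6 lower and 5 higher at equal medians. As deposited 38.9% were lower and 22.2% higher, against 31.4% and 10.7% of all tested genes. At equal medians 33.3% were lower, against 16.8% of all tested genes. HNF4alpha, a nuclear receptor that acts on apolipoprotein and MTTP promoters in mammals, had 1.66 and 3.80 FPKM in LPS livers against 41.9 and 55.1 FPKM in control livers (log2 fold change −3.78, SE 0.30, limma adjusted p = 1.00e-04). HNF4beta, named after its values were seen, had 50.5 and 51.3 FPKM in LPS and 35.6 and 41.8 FPKM in control livers. It did not pass as deposited (0.39, limma adjusted p = 0.106) but was higher at equal medians (0.70, limma adjusted p = 0.0205). SREBP-1, a driver of fat synthesis, fell by 3.02. The forkhead factor FOXO3 rose by 2.81 and CEBPB, an inflammatory leucine zipper factor, by 1.56. NR5A2 rose by 0.75 and LXR, the oxysterol receptor, by 0.51. NR5A2 did not pass with control library 2 left out (0.0816) or with LPS library 1 left out (0.0554). The LXR call ended with the replicate number as a block (0.0547), with a constant prior variance (0.0615) and without any 1 of the 4 libraries (0.0716 to 0.2).

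Over the 4 input libraries, the genes with a symbol whose centred log2(FPKM + 1) values lay nearest to those of ANGPTL4 were the deubiquitinase USP2 (Euclidean distance 0.460), the water channel AQP11 (0.515) and GPAM, an acyltransferase at the start of triglyceride synthesis (0.539). USP2 had 0.996 and 1.63 FPKM in LPS livers against 31.2 and 34.1 FPKM in control livers. Nearest to LPL were A1CF, a partner of the editing enzyme of APOB messenger RNA in mammals (0.0545), the epimerase DSE (0.0943) and the lectin LGALS8 (0.104). A1CF had 13.3 and 9.16 FPKM in LPS livers against 29.0 and 24.3 FPKM in control livers. These genes were picked as the nearest of all tested genes with a symbol on only 4 values, so small distances follow from the choice. Shared regulation was not tested.

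The m6A data came as 1 list of peaks for each treatment, so peak differences have no replicate check and no test. The fold enrichment of a peak, IP over input, is the authors' value. The LPS list held 5938 peaks and the control list 7813. The 8 genes had 11 peaks in the LPS list and 16 in the control list, given to the same 6 genes, and LPL and MTTP had no peak in either list. By these assignments 75% of the 8 genes had a peak in each list, against 42.8% of expressed genes in the LPS and 50.4% in the control list. The exact binomial interval of that share was 34.9% to 96.8% (counting error only). It treats the 8 genes as random draws, but they were chosen, so it is a description. The peak given to LIPC has no block inside that gene; without it, a choice made after seeing the data, the share was 62.5% in each list (24.5% to 91.5%). Peaks were more common at high levels: among genes averaging 100 FPKM or more, 64.3% had one in the LPS list and 64.2% in the control list. Counting only peaks with a fold enrichment of at least 4, 37.5% of the 8 genes had one in each list. The shares of expressed genes were then 29.6% in the LPS and 37.7% in the control list.

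All 11 peaks of the LPS list overlapped a control peak by at least 50% of the shorter one, as did 87.3% of all peaks in the LPS list. The other 5 control peaks, 3 of APOB and 2 of ANGPTL4, had no partner. Of all peaks in the control list, 63.8% had one. Fold enrichment was lower in the LPS list for 9 of the 11 pairs, with a median log2 ratio of −0.30. Among all 4579 one-to-one pairs 66.8% were lower, with a median of −0.23. Of the 11 LPS peaks, 6 were annotated to a 3′ UTR. Among all one-to-one pairs annotated to a 3′ UTR, 72.1% were lower, with a median of −0.30. The median was −0.21 for 5′ UTR pairs and −0.17 for exon pairs. The 11 pairs of the 8 genes mix these regions, so their median matches none of these sets. The share for the 8 genes is thus to be read against a general shift in the same direction.

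**Figure D4:**
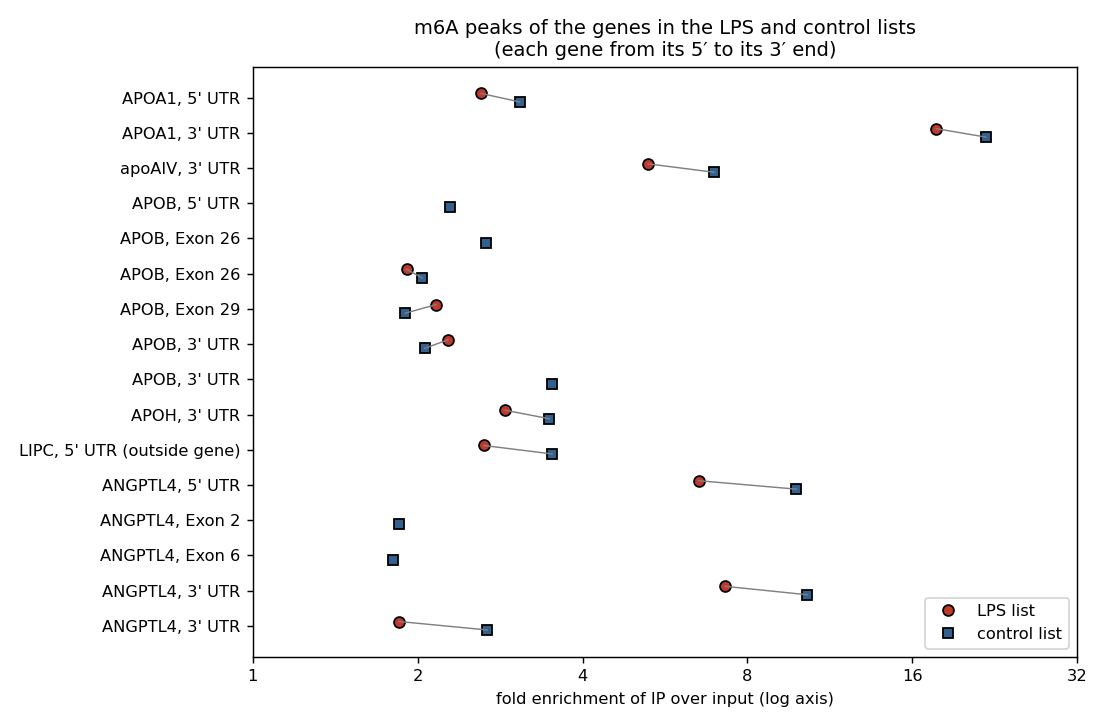
Fold enrichment of IP over input (log axis) for the peaks of 6 genes in the LPS list (circles) and the control list (squares), each gene from 5′ to 3′, with lines joining overlapping peaks. APOA1 has the highest peak in both lists (17.7 in LPS and 21.8 in control), and 5 control peaks have no LPS partner.

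APOA1, apoAIV and APOA5 are neighbours on chromosome 24, read from the minus strand, and together span 8094 bases from 5099632 to 5107725 in the coordinates of the peak lists, whose genome build is not given in the sources used here. APOA5 lies 1108 bases beyond apoAIV, which lies 1954 bases beyond APOA1. In both lists each of the 3 genes had a peak that reached the 3′ end of its interval and was annotated to a 3′ UTR. Among all peaks, 13.1% in the LPS list and 15.1% in the control list reached the 3′ end of their gene. These shares count peaks and not genes, so they are no like measure for the 3 genes.

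The 3′ peak of APOA1 covered 616 bases (5106238 to 5106853) with a fold enrichment of 17.7 in the LPS list, against 528 bases (5106238 to 5106765) and 21.8 in the control list. These values stood at percentile 88.4 of the LPS list and 89.6 of the control list. A second APOA1 peak, in 3 blocks at the 5′ end from 5107231 to 5107725, had the same 177 bases in both lists and fold enrichments of 2.61 in LPS and 3.07 in control. The peak of apoAIV covered 570 bases (5102812 to 5103381) at 5.27 in LPS, against 600 bases (5102812 to 5103411) at 6.96 in control.

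APOA5, the third neighbour, had the lowest log2 fold change of the 3 genes in RNA level. It had 130 and 124 FPKM in LPS livers, against 441 and 516 FPKM in control livers (log2 fold change −1.90, SE 0.17, limma adjusted p = 1.89e-04). Per 1000 of APOA1 FPKM in the same library, APOA5 stood at 5.49 and 4.90 in LPS and at 16.2 and 19.9 in control livers. The same measure for apoAIV was 115 and 101 in LPS and 200.4 and 153 in control livers. The groups did not overlap in either ratio. The 3′ peak of APOA5 covered 419 bases at a fold enrichment of 12.6 in the LPS list and 658 bases at 20.7 in the control list.

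**Figure D5:**
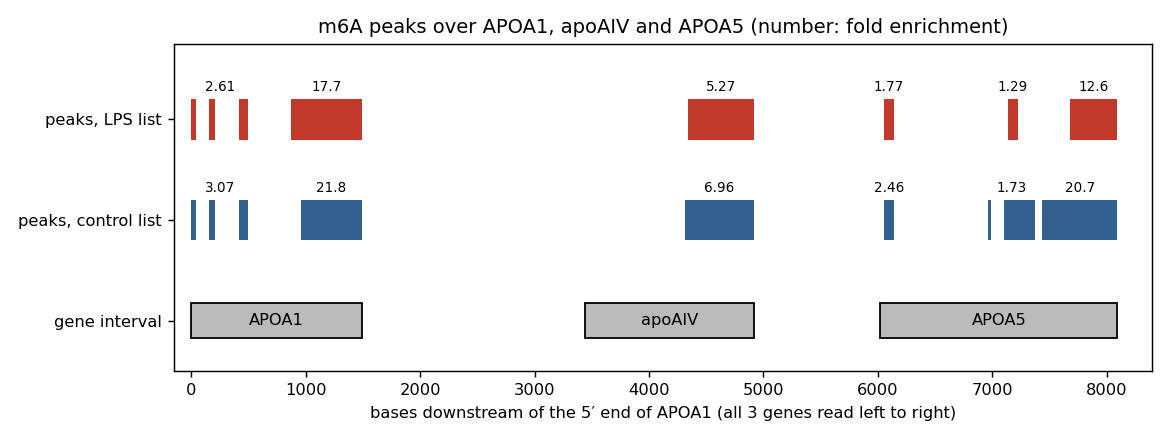
Intervals of APOA1, apoAIV and APOA5 (grey) and their m6A peak blocks in the LPS list (upper) and the control list (middle), by distance in bases from the 5′ end of APOA1, with the fold enrichment of each peak. In both lists each gene has its highest peak at its 3′ end.

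ANGPTL4, on the minus strand of chromosome 28 from 849861 to 858519, had 3 peaks in the LPS list and 5 in the control list. The peak at its 5′ end had a fold enrichment of 6.52 over 121 bases (858399 to 858519) in LPS and of 9.83 over 181 bases (858339 to 858519) in control. Its main 3′ UTR peak covered 270 bases (851418 to 851687) at 7.28 in LPS, against 659 bases (851089 to 851747) at 10.3 in control. A weaker 3′ UTR peak had 1.85 over 91 bases in LPS and 2.68 over 181 bases in control.

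The control peaks of ANGPTL4 without a partner lay in exon 2 (1.85) and exon 6 (1.80) of 7 exons. In all, its peaks covered 482 bases in the LPS list and 1233 bases in the control list, beside mean input levels of 28.5 FPKM in LPS and 463 FPKM in control livers. The part of the lower RNA level in the smaller number and extent of its peaks was not tested.

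APOB, on the minus strand of chromosome 3 from 101880367 to 101916760, had 3 peaks in the LPS list and 6 in the control list, at nearly equal mean input levels of 144 FPKM in LPS and 142 FPKM in control livers. The 3 shared peaks lay in exon 26 (fold enrichment 1.91 in LPS and 2.04 in control), in exon 29 (2.16 in LPS and 1.90 in control) and in the 3′ UTR (2.27 in LPS and 2.06 in control). Exon 26 of 29 is the long exon that in mammals holds the edited codon of APOB. The exon 29 and 3′ UTR pairs were the 2 pairs of the 8 genes with the higher value in LPS.

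The control peaks of APOB without a partner lay in the 3′ UTR (3.52 over 61 bases), in exon 26 (2.67 over 151 bases) and in the 5′ UTR (2.29 over 61 bases). All 9 APOB peaks were under the median fold enrichment of their lists, 4.99 in LPS and 5.51 in control. The single peak of APOH, on chromosome 18 from 7729641 to 7729880, covered the same 240 bases in both lists, at 2.89 in LPS and 3.48 in control. It was annotated to a 3′ UTR and lay 3891 bases from the 3′ end of the gene interval.

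The peak given to LIPC did not lie in LIPC. The gene interval runs on the minus strand of chromosome 10 from 6480269 to 6521283. The peak, annotated to a 5′ UTR, spans 6474770 to 6619207 in the LPS list (fold enrichment 2.64) and 6474708 to 6619177 in the control list (3.52), but its blocks lie 5499 bases or more outside the gene interval. In the LPS list they cover 91 bases and in the control list 121 bases, 0 of them inside LIPC. All of these blocks lie in the interval of ADAM10, a metalloprotease gene on the plus strand from 6434758 to 6619897, which encloses LIPC.

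Peaks with no block inside their gene were rare, 0.640% of the LPS and 0.461% of the control list. Conversely, a control peak given to ADAM10 (fold enrichment 2.24), with blocks from 6480329 to 6480374 and from 6481875 to 6482009, lies wholly inside the interval of LIPC, 60 bases from its 3′ end. The lists give the strand of the assigned gene and not that of the peak. The control peak given to ADAM10 lies in both intervals, so it cannot be assigned to 1 of the 2 genes. Of these 2 intervals, the peak given to LIPC has blocks only in that of ADAM10. The libraries were made by a dUTP method, which keeps strand, but nothing says whether strand was used to count reads, so the FPKM of LIPC and ADAM10 carry the same doubt. LIPC had a mean of 66.8 FPKM in LPS and 55.5 FPKM in control livers, and ADAM10 had 5.72 FPKM in LPS and 4.47 FPKM in control livers. Without the peak given to LIPC, 8 of 10 pairs were lower in the LPS list, with a median log2 ratio of −0.28.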

How the data were processed

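Liver poly(A) RNA was sequenced as input and m6A IP libraries. The submitters' processing notes name StringTie, HISAT2, ChIPseeker and HOMER with no role for any of them; for the genome build and peak caller, the sources used here give no name. FPKM values were deposited by the authors in 1 column for each of 4 input libraries. Columns with "Treat" in their name were read as LPS because the labels hold no other treatment. The authors also deposited 1 peak list per treatment, which gives every peak a p-value and a fold of IP over input; whether replicates were pooled is not stated. In each list 1 repeated entry was dropped.

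Expression was tested on log2(FPKM + 1) with limma 3.58.1 (R 4.3.3, trended prior), LPS minus control, 2 against 2, over 9484 genes averaging 1 FPKM or more, all 8 genes among them; fold changes on this scale understate those of low genes. A call was a two-sided p under 0.05 after Benjamini-Hochberg adjustment over all tested genes. On data simulated for this comparison with 9484 genes, 71.6% of genes changed by 1 on the log2 scale were called, and 100% of those changed by 2. Of the unchanged genes 11 were called. The simulation changed 200 genes, whereas 3996 were called in the real data, so its rates need not hold there. Peaks were shared when their blocks overlapped by at least 50% of the shorter peak, with assigned genes on the same strand (Python 3.11.15, pandas 2.3.3).

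The genes and lists were chosen with earlier results of these data known. Named pathway genes were up to 3 called genes of each list in each direction with the largest change, all where 5 or fewer went one way, and the 3 genes nearest to ANGPTL4 and to LPL. Marker lists are given by counts and sums, with called genes named where the sums differed (hepatocytes by counts only). PECAM1, STAB2, LYVE1, VWF, Ii, ADIPOQ, PLIN1, FABP4, HBG2, CSF3R, DES, LUM and LRAT were added after their values were seen. Names outside the table were matched through RefSeq (GRCg7b). The alternatives were other pseudocounts, filters, scalings and prior variance, a replicate block, each library left out, and other overlap and fold limits for peaks. The rabbit IgG control named in the labels was not analysed here. Some genes that the rule would name are not reported here, though they stay in the counts.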

Additional observations from a re-analysis of the deposited data

How the results depend on the processing

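ANGPTL4 and LPL stayed lower and called under every alternative for expression (highest adjusted p with 1 library left out 0.00052 for ANGPTL4 and 0.0247 for LPL). APOA1 turned to 0.19 and APOH to 0.17 at equal medians, neither called. apoAIV lost its call with no filter (−0.82) and at equal medians (−0.51), and MTTP with no filter (−0.74), at equal medians (−0.44) and under quantile normalization (−0.51). With 1 library left out, where a lone sample is assumed to vary like the others, the log2 fold change ran from −4.20 to −3.71 for ANGPTL4, −1.05 to −0.59 for apoAIV, −1.02 to −0.47 for MTTP, −0.17 to −0.07 for APOA1, −0.33 to 0.44 for APOB, −0.32 to 0.04 for APOH and −0.23 to 0.63 for LIPC. APOB turned to −0.33 without control library 2 and −0.16 without LPS library 1, APOH to 0.04 without control library 2, and LIPC to −0.23 without LPS library 1. The number of the 8 genes called lower was 2 with no filter, 2 at equal medians and 2 to 4 with 1 library left out. Among all tested genes 2982 were lower, 1594 at equal medians, 1505 under quantile normalization and 2097 to 2494 with 1 library left out.

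No label pairs libraries of equal replicate number, and the correlation of their deviations was 0.0292. At 2 libraries a group, that value cannot exclude shared handling. With the replicate number as a block, 4 of the 8 genes were lower, 3150 genes were lower in all, and the log2 fold changes were the same.

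At a fold enrichment of at least 4, the 8 genes kept 4 peaks in the LPS list and 4 in the control list, 4 of them shared. With an overlap of at least 50% of both peaks 10 were shared, and 11 with any overlap. The share of expressed genes with a peak was 54.5% in the LPS and 59.6% in the control list at a mean of at least 5 FPKM. For the 8 genes it stayed at 75% in each list. At a fold enrichment of at least 4, 29.6% of expressed genes had a peak in the LPS and 37.7% in the control list. The 8 genes then stood at 37.5% in each list, level with the expressed genes of the control list. Depth is unknown, so a missing peak in LPL, MTTP or, after LPS, in ANGPTL4 or APOB does not show that m6A is absent. The cause of these changes was not tested.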
